A study of Felis catus with 2 samples.

Results

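The genes described here are 9 that carry vitamin A or turn it into retinoic acid: RBP4, TTR, STRA6, CRABP1, RDH10, RDH5, ALDH1A1, ALDH1A2 and ALDH1A3. They were listed by name with earlier results of these data known, and each name stands on 1 row among the 32065 loci of the deposited table. All 9 reached at least 1 FPKM, a count of fragments scaled by exon length and by library size, in at least 1 library, and none was listed at 0. The study followed a feline form of primary congenital glaucoma (PCG), a recessive disease of a colony founded by Siamese cats in which affected animals carry a frameshifting insertion in LTBP2. Polyadenylated RNA was sequenced from an affected cat and from a healthy cat that was not related to it, both 2 months old. The tissue was the iridocorneal angle with the ciliary body, sclera and trabecular meshwork beside it. Each condition is 1 library from 1 animal, so disease, family background and dissection cannot be told apart, no difference was tested, and every value describes these 2 libraries. The breed and sex of the 2 cats are not given in the sources used here.

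Retinol travels in the blood on RBP4, the retinol-binding protein, which is held in a larger complex by transthyretin, the product of TTR. STRA6 is the membrane receptor that takes retinol from RBP4 into cells. Inside the cell RDH10 oxidises retinol to retinal, RDH5 does so for the 11-cis form used in vision, and the 3 ALDH1A enzymes convert retinal to retinoic acid in a step that is not reversed. CRABP1 binds retinoic acid in the cytosol, and the nuclear receptors RAR and RXR act on genes when retinoic acid binds them. In the developing eye, retinoic acid made by the optic cup and the surrounding mesenchyme is known to guide the tissue that forms the cornea, iris and drainage angle.

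The retinoid genes differed in both directions between the 2 libraries. In the affected library 3 of the 9 genes were higher by 2-fold or more, namely RBP4, ALDH1A3 and RDH10, and 3 were at least 2-fold lower, namely STRA6, ALDH1A2 and ALDH1A1. The other 3, TTR, CRABP1 and RDH5, differed by less than that. These calls use the log2 ratio of affected over normal after addition of 1 FPKM to each value, a scale that understates the change of low genes. Across the 16676 loci that reached 1 FPKM in a library, 8.14% were at least 2-fold higher and 8.75% at least 2-fold lower, against 33.3% of the 9 genes in each direction. The median log2 ratio was −0.40 over the 9 genes and −0.0047 over all loci. In bulk tissue, fewer cells of a type and less RNA per cell cannot be told apart.

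**Figure D1:**
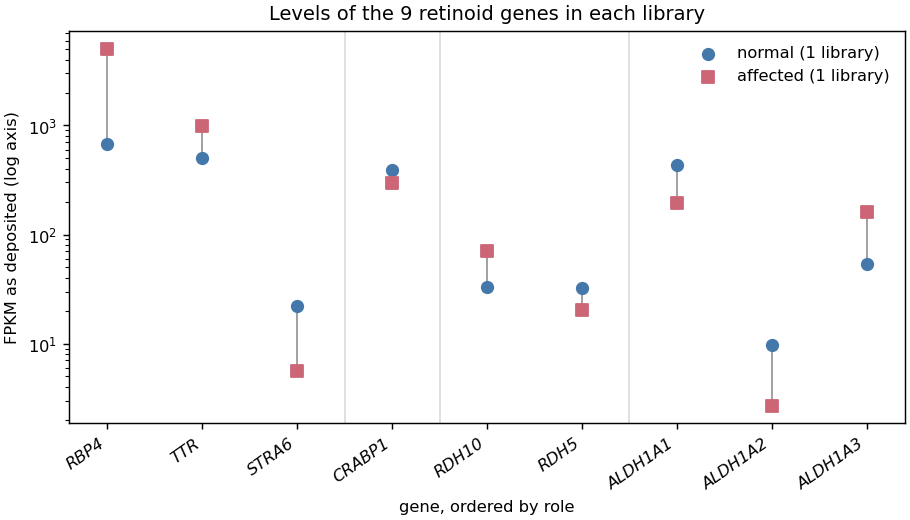
Deposited FPKM (log axis) of the 9 retinoid genes in the normal library (circles) and the affected library (squares), ordered by role with grey lines between transport, binding, retinol oxidation and retinal oxidation. RBP4 has the largest gap, from 684 to 5024 FPKM, and STRA6, ALDH1A2 and ALDH1A1 lie lower in the affected library.

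RBP4 showed the largest difference of the 9 genes. Its locus, chrD2:55828138-55836957 in felCat5, had 684 FPKM in the normal cat and 5024 FPKM in the affected cat. The affected level was 7.35 times the normal level, with a log2 ratio of 2.88, and 89 loci had a higher log2 ratio. RBP4 ranked as locus 126 by FPKM in the normal library and as locus 11 in the affected library. It made up 31.6% of the summed FPKM of the 9 genes in the normal cat and 74.3% in the affected cat. The other 8 genes together summed to 1479 FPKM in the normal cat and 1739 FPKM in the affected cat, so most of the gain in the summed level of the 9 genes came from RBP4. The closest locus, an unnamed locus 874 bases away, had 0.243 and 1.06 FPKM.

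TTR, whose protein also carries thyroxine, stood beside RBP4 among the most abundant members. At chrD3:54653541-54660582 it had 505 FPKM in the normal cat and 991 FPKM in the affected cat. This is a 1.96-fold difference with a log2 ratio of 0.97, just short of 2-fold. RBP4 and TTR therefore differed in the same direction but by unequal amounts. The RBP4 level was 1.35 times that of TTR in the normal library and 5.07 times in the affected library, a ratio within each library that no scaling between libraries changes.

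STRA6, the receptor for RBP4, went the other way. At chrB3:34006429-34033628 it had 22.1 FPKM in the normal cat and 5.58 FPKM in the affected cat, 3.96-fold lower, with a log2 ratio of −1.81, the lowest of the 9 genes. Only 390 loci had a lower log2 ratio. The RBP4 level was 30.9 times that of STRA6 in the normal library and 900.2 times in the affected library. ISLR, 2475 bases from STRA6, had 30.4 and 27.0 FPKM, so the level at this neighbouring locus was similar in both libraries.

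Markers of several tissues differed between the same libraries. Among 8 listed ciliary epithelium markers, 7 were 2-fold or more above the normal level in the affected cat and 1 was 2-fold or more below it. Their summed level was 2265 FPKM in the normal cat and 6668 FPKM in the affected cat. Most of both sums came from OPTC, with 351.0 and 1234.7 FPKM, and from the collagen genes COL9A1, COL9A2 and COL9A3. These had 403.5 and 1718.3 FPKM, 355.6 and 1391.1 FPKM, and 519.6 and 1402.4 FPKM. BEST2, a chloride channel gene of the ciliary epithelium, had 21.4 and 114.8 FPKM, whereas CA2, which encodes a carbonic anhydrase, had 370.2 and 111.9 FPKM. The ciliary epithelium is known to make RBP4 and transthyretin, as is the retinal pigment epithelium. The 9 retinal pigment epithelium markers other than TTR and RDH5 summed to 1190 FPKM in the normal cat and 849 FPKM in the affected cat. Of these sums PMEL, also a pigment cell marker, made 493.0 and 134.4 FPKM, a larger drop than that of the whole list. Among the 9 markers 0 were at least 2-fold higher and 2, PMEL and RPE65, at least 2-fold lower. The other 7 differed by less. Liver is the main source of both proteins in the blood. The list of 7 liver-type plasma proteins summed to 292.9 FPKM in the normal cat and 459.2 FPKM in the affected cat, and of its 4 genes past the minimum 2 were at least 2-fold higher and 1 was at least 2-fold lower. ALB had 0.241 and 0.222 FPKM, AHSG was listed at 0 in both libraries, and FGA was listed at 0 and 0.0053 FPKM. FGB had 1.65 and 1.78 FPKM and SERPINA1 0.713 and 2.79 FPKM. Of the apolipoprotein genes of that list, APOA1 had 285.8 and 138.1 FPKM and APOA2 had 4.49 and 316.3 FPKM. The part of the ciliary epithelium, pigment epithelium and plasma protein genes in the RBP4, TTR and STRA6 differences was not tested.

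The 3 ALDH1A enzymes catalyse the same step, and their relative levels were different in the 2 libraries. ALDH1A1, which also serves as an abundant structural enzyme in the cornea and lens of several mammals, had 432 FPKM in the normal cat and 193 FPKM in the affected cat at chrD4:14990902-15049922. This was 2.24-fold lower, with a log2 ratio of −1.16. ALDH1A3, at chrB3:19069503-19103849, had 53.2 FPKM in the normal cat and 160.0 FPKM in the affected cat, 3.01-fold higher, with a log2 ratio of 1.57. ALDH1A2, the enzyme of embryonic mesenchyme, was the lowest of all 9 genes in both libraries. It had 9.73 FPKM in the normal cat and 2.70 FPKM in the affected cat, 3.61-fold lower, with a log2 ratio of −1.54.

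The sum of the 3 genes was 495 FPKM in the normal cat and 355 FPKM in the affected cat. ALDH1A1 supplied 87.3% of that sum in the normal library and 54.2% in the affected library. ALDH1A3 supplied 10.8% and 45.0%, and ALDH1A2 1.96% and 0.758%. ALDH1A1 thus stood 8.12 times above ALDH1A3 in the normal library and 1.20 times above it in the affected library. These shares are taken within a library and do not depend on the scaling between libraries.

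**Figure D2:**
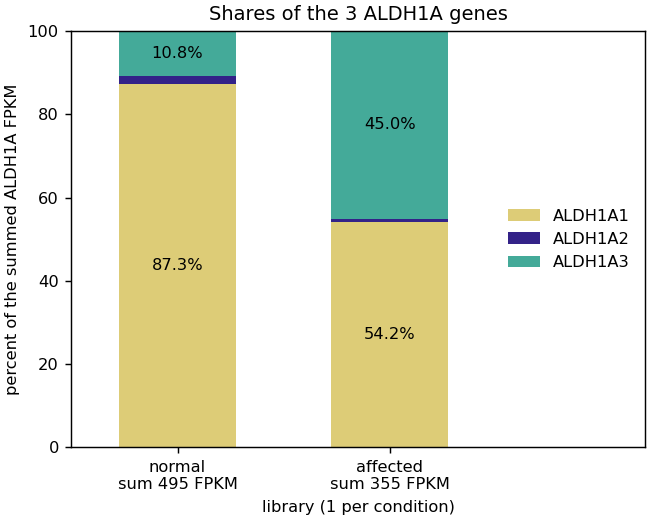
Percent of the summed FPKM of ALDH1A1, ALDH1A2 and ALDH1A3 held by each gene in the normal (left bar) and affected (right bar) library, with the sum in FPKM under each bar. The ALDH1A3 share is 10.8% in the normal cat and 45.0% in the affected cat, and ALDH1A1 holds the largest share in both.

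The span given for ALDH1A2, chrB3:48447817-48654633, is shared with AQP9 and with an unnamed locus, so it is the span of a group of loci and not of the gene alone. AQP9 had 0.117 FPKM in the normal cat and 0.154 FPKM in the affected cat. The unnamed locus had 3.74 and 0.240 FPKM, lower in the affected library like ALDH1A2 itself. The library kit does not mark the strand, so reads from overlapping genes on opposite strands cannot be told apart.

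Markers of tissues in which ALDH1A1 is known to be abundant also differed. The 9 listed corneal and conjunctival epithelium markers summed to 1050.2 FPKM in the normal cat and 110.2 FPKM in the affected cat, and 7 of them were at least 2-fold lower. ALDH3A1, the aldehyde dehydrogenase typical of the corneal epithelium, had 475.3 and 79.2 FPKM. Of 7 stroma and keratocyte markers, 6 were at least 2-fold lower, among them KERA with 264.7 and 0.190 FPKM. That list summed to 4364 and 600.1 FPKM, or to 4364 and 153 FPKM without COL1A2, which is listed at 0 in the normal library. Of 11 lens markers, 6 were at least 2-fold higher, opposite in direction to ALDH1A1, and 4 differed by less. The other, CRYAA, is listed at 22978 FPKM in the normal and at 0 in the affected library, and an exact 0 in such a file can be a failed estimate, so it is not read as a lower level. The lens list summed to 57881 and 49266 FPKM, or to 34903 and 49266 FPKM without CRYAA. The part of these tissues in the ALDH1A1 and ALDH1A2 differences was not tested. ALDH1A3 and RDH10 differed in the same direction as the summed ciliary epithelium, photoreceptor and inner retina markers. GLUL made most of the inner retina sum. The plasma protein sum, and the lens sum without CRYAA, were higher in the affected library too. The part of all these tissues in the ALDH1A3 and RDH10 differences was not tested either.

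**Figure D3:**
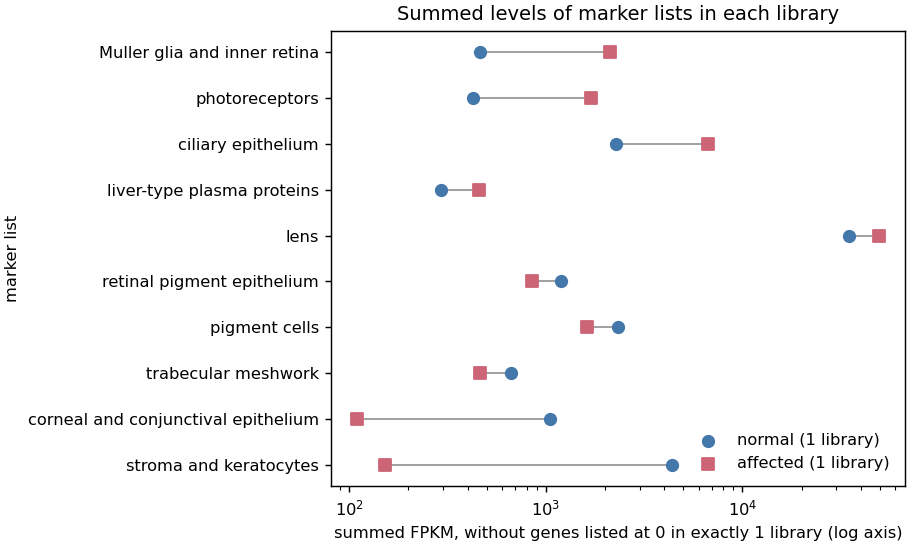
Summed FPKM (log axis) of each marker list in the normal (circles) and affected (squares) library, without genes listed at 0 in exactly 1 library, ordered by the ratio of the sums. Stroma and corneal epithelium lie far lower in the affected library, whereas ciliary epithelium, photoreceptor and inner retina lists lie higher. The lens and plasma protein lists lie higher by smaller ratios.

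The retinol dehydrogenases RDH10 and RDH5 had nearly equal levels in the normal library and parted in the affected library. RDH10, at chrF2:22603161-22629380, had 32.9 FPKM in the normal cat and 70.0 FPKM in the affected cat, 2.13-fold higher, with a log2 ratio of 1.07. RDH5, at chrB4:84748932-84752237, had 32.1 FPKM and 20.3 FPKM, 1.58-fold lower, with a log2 ratio of −0.63. The ratio of RDH10 to RDH5 was 1.03 in the normal cat and 3.45 in the affected cat. RPE65, the isomerase that supplies the 11-cis retinol on which RDH5 acts, had 53.2 and 26.1 FPKM, lower in the affected library as RDH5 was. RLBP1 and RGR, on the same list of pigment epithelium markers as RPE65, were higher, with 185 and 261 FPKM and with 20.7 and 25.4 FPKM. The part of the pigment epithelium in the RDH5 difference was not tested. Both dehydrogenases have abundant neighbours. BLOC1S1, 1478 bases from RDH5, had 153.0 and 145.2 FPKM, and CD63, 1190 bases away on the other side, had 686.1 and 556.4 FPKM. A locus with only an Ensembl identifier, 943 bases from RDH10, had 1247 and 1398 FPKM.

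CRABP1 was the member with the smallest difference. At chrB3:357113-362953 it had 392 FPKM in the normal cat and 297 FPKM in the affected cat, 1.32-fold lower, with a log2 ratio of −0.40. Its relative CRABP2, which delivers retinoic acid to the nuclear receptors, had 112 and 23.3 FPKM and a log2 ratio of −2.22. CRABP1 exceeded CRABP2 3.50-fold in the normal cat and 12.7-fold in the affected cat. The span listed for CRABP2 is shared by 30 loci, so its position is not that of the gene alone.

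The order of the 9 levels, compared per length of transcript, was RBP4, TTR, ALDH1A1, CRABP1, ALDH1A3, RDH10, RDH5, STRA6 and ALDH1A2 in the normal library. In the affected library only ALDH1A1 and CRABP1 exchanged places. Low values at unnamed loci lie at whole multiples of 1 fragment, which gave a value for 1 fragment on 1 kilobase of 0.0140 FPKM in the normal cat and 0.0148 FPKM in the affected cat. With 1 kilobase of effective length, the counting error of the members would be between 0.172% for RBP4 and 7.41% for ALDH1A2, both in the affected library. On that assumption RDH10 and RDH5 in the normal library were the only neighbours in either order that did not differ beyond counting error, with a log2 difference of 0.038 and a 95% half-width of 0.083. Counting error does not include the variation between cats, which these libraries cannot show.

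**Figure D4:**
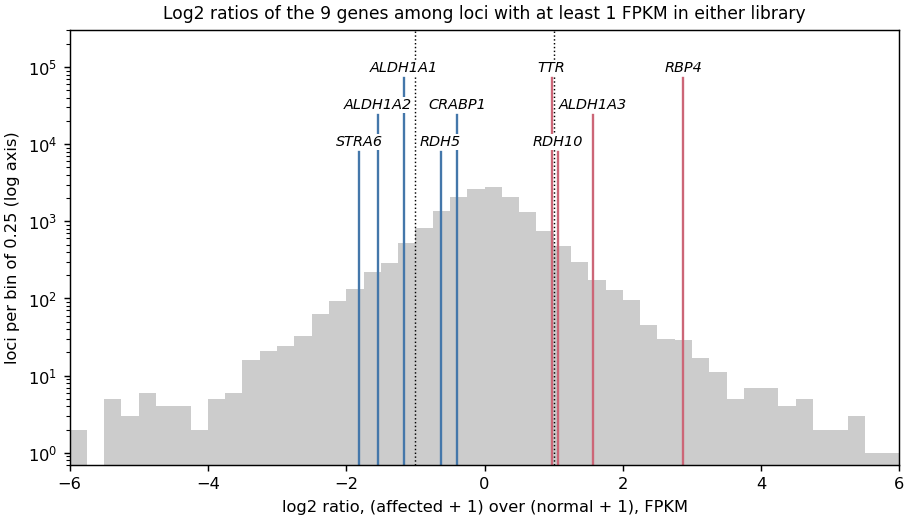
Number of loci (log axis) per bin of 0.25 in log2 ratio among the 16676 loci that reached 1 FPKM in a library, with vertical lines at the 9 retinoid genes and dotted lines at 2-fold. The 25 loci beyond 6 on either side are not drawn. RBP4 at 2.88 and STRA6 at −1.81 are the outermost of the 9 genes.

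The position of the genes was not used to choose them. CRABP1, ALDH1A3, STRA6 and ALDH1A2, or 44.4% of the 9 genes, are on chromosome B3, which also carries LTBP2, as are 6.44% of the loci past the minimum. The closest of them to LTBP2, ALDH1A2, is 72.3 Mb away. Of these 4 genes, 1 was at least 2-fold higher and 2 were at least 2-fold lower in the affected library, where 8.14% and 8.75% of all loci were.

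Other genes of retinoid metabolism and response were taken from lists by role, and 35 of 42 names were listed in the table. Of the 29 with at least 1 FPKM in either library, 4 were at least 2-fold higher and 5 at least 2-fold lower in the affected cat, or 13.8% and 17.2%, against 8.14% and 8.75% of all loci. Their median log2 ratio was −0.0082.

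Among the other carriers and uptake receptors, 2 of 6 genes were at least 2-fold higher and 2 at least 2-fold lower. This is 33.3% in each direction, against 8.14% and 8.75% of all loci. LRP2, or megalin, an endocytic receptor that takes up retinol-binding protein, had 10.1 FPKM in the normal cat and 41.2 FPKM in the affected cat, with a log2 ratio of 1.93. Its difference was thus opposite in direction to that of STRA6. RBP3, the retinoid carrier between photoreceptors and pigment epithelium, had 14.9 and 36.0 FPKM. RBP7, a cellular retinol-binding protein known from fat and its vessels, had 31.7 and 1.92 FPKM, with a log2 ratio of −3.49. RLBP1, the 11-cis carrier of pigment epithelium and Müller glia, had 185 and 261 FPKM.

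Of 6 other dehydrogenases and reductases past the minimum, 1 was at least 2-fold higher and 0 at least 2-fold lower. These are 16.7% and 0%, against 8.14% and 8.75% of all loci. The higher gene was RDH8, a photoreceptor enzyme that reduces all-trans-retinal, with 0.330 FPKM in the normal cat and 10.8 FPKM in the affected cat. A second, lower row with the same name and span was not used. RDH12, another photoreceptor enzyme, had 5.54 and 8.27 FPKM, with a log2 ratio of 0.50. DHRS3, which turns retinal back to retinol, had 12.9 and 18.7 FPKM, and RDH14 had 26.7 and 21.7 FPKM. Among storage and visual cycle genes, ABCA4, the photoreceptor transporter of retinal, had 2.54 and 10.4 FPKM. RPE65, at 2.04-fold lower, was just past the threshold in the other direction. RGR had 20.7 and 25.4 FPKM, the carotenoid oxygenase gene BCO2 had 7.18 and 12.3 FPKM, and DGAT1 had 12.7 and 12.6 FPKM.

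Photoreceptor markers differed as well. Of 10 listed photoreceptor markers, RBP3 among them, 8 were at least 2-fold higher in the affected cat and 0 were at least 2-fold lower, with summed levels of 425.1 and 1699 FPKM. Markers of Müller glia and inner retina, 10 of them listed, summed to 465 and 2121 FPKM, of which GLUL made 346.6 and 1981 FPKM. Of those 10, 3 were at least 2-fold higher and 1 was at least 2-fold lower. The pigment cell list summed to 2343 and 1624 FPKM. The trabecular meshwork list summed to 668 and 461 FPKM, although its median log2 ratio was 1.01 and 3 of its 5 genes past the minimum were at least 2-fold higher, because MGP alone had 454.9 and 52.9 FPKM. MYOC, another gene of that list, had 149.7 and 301.5 FPKM. The dissection as described names neither neural retina nor lens, and the part of retinal RNA in the RBP3, RDH8 and ABCA4 differences was not tested.

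The nuclear receptors all differed by less than 2-fold on the log2 ratio with 1 FPKM added. The retinoic acid receptors were lower in the affected library, RARA with 20.4 and 11.5 FPKM, RARB with 17.3 and 9.64 FPKM, and RARG with 20.8 and 10.01 FPKM. RARG, at a log2 ratio of −0.98, was closest to the threshold and passed it, at −1.05, with a pseudocount of 0.1 FPKM and, at −1.03, with both libraries rescaled to the same sum. A second, lower row with the name RARG was not used. RXRA, a partner of all 3, had 24.2 and 28.8 FPKM, and RXRB had 27.8 and 25.0 FPKM. Of the retinoic acid hydroxylases, which clear retinoic acid, CYP26B1 was low, with 2.21 and 1.88 FPKM. CYP26A1 and CYP26C1 stand together on 1 row, which was looked at after its values were seen. That joint locus lies 404.6 kb from RBP4 on chromosome D2 and had 14.2 FPKM in the normal cat and 28.2 FPKM in the affected cat.

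Of 8 genes known to respond to retinoic acid that passed the minimum, 0 were at least 2-fold higher and 3, DKK2, CRABP2 and TGM2, were at least 2-fold lower in the affected library, or 0% and 37.5%, against 8.14% and 8.75% of all loci. STRA6, itself such a gene, is counted with the 9 members instead, and CYP26A1, another, stands only on the joint row given above, which was higher in the affected library, and is not counted. DKK2, a Wnt inhibitor that answers retinoic acid in the mesenchyme around the developing eye, had 35.9 and 0.322 FPKM, with a log2 ratio of −4.80. TGM2, a transglutaminase, had 18.9 and 7.42 FPKM. RARRES1 and RARRES2, named for their response to retinoids, were slightly higher, with 35.7 and 51.1 FPKM and with 139 and 157 FPKM. The stroma and corneal epithelium markers given above were lower in the affected library too, and their part in the DKK2, CRABP2 and TGM2 differences was not tested.

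**Figure D5:**
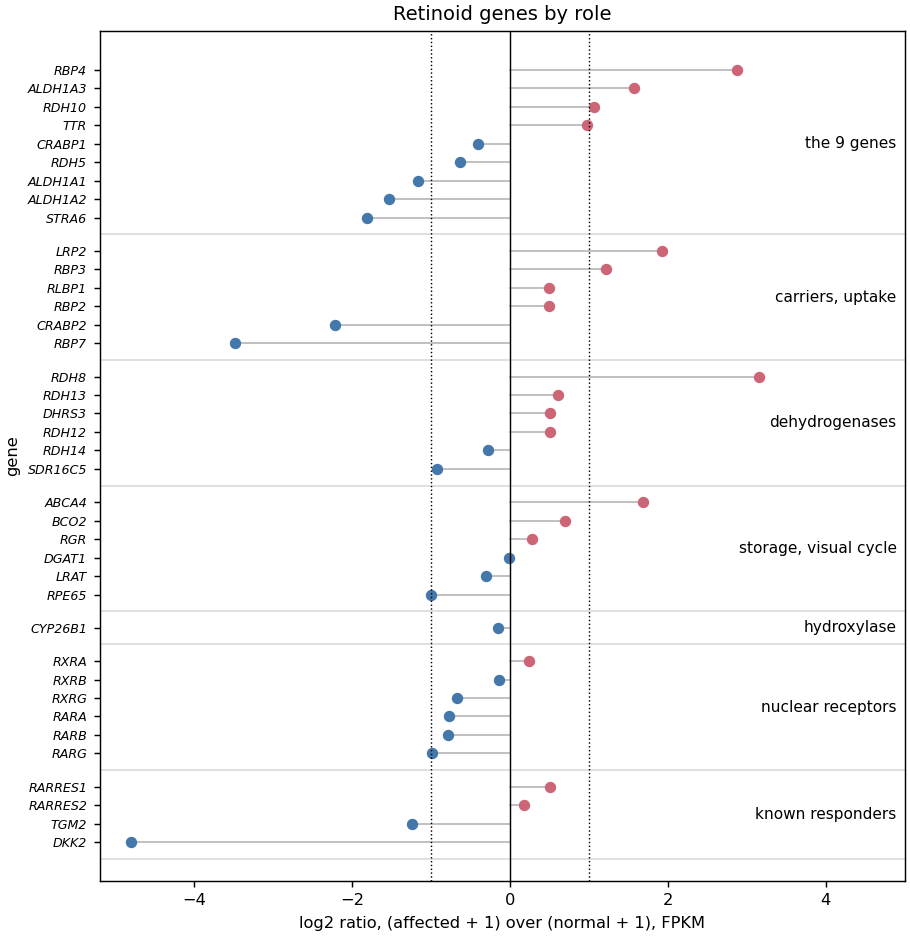
Log2 ratio, affected over normal with 1 FPKM added, of the 9 genes and of 29 further retinoid genes with at least 1 FPKM in either library, grouped by role, with dotted lines at 2-fold. Each group with more than 1 gene holds genes on both sides of 0, and DKK2 at −4.80 lies farthest out.

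For each of the 9 genes, the named gene nearest to it in the plane of log2(FPKM + 1) in the 2 libraries was taken from 14516 others. With only 2 libraries, such nearness says no more than that both levels were similar. RBP4 had no close neighbour, since the nearest gene, CRYGS, lay 0.95 away with 619 and 2618 FPKM. For the other 8 genes the distance was between 0.016 and 0.22. ALDH1A1 lay nearest to TAGLN, ALDH1A2 to PHLDB2, ALDH1A3 to GNGT1, a transducin subunit gene of rod photoreceptors, CRABP1 to RPL10A, STRA6 to RERG, RDH5 to CSPG5, RDH10 to CHST9 and TTR to FABP5.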

How the data were processed

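Polyadenylated RNA of 1 normal and 1 affected cat was sequenced on an Illumina HiSeq after TruSeq v2 preparation. The values deposited by the authors are FPKM per locus from Cufflinks 2.1.1, after alignment to felCat5 by TopHat2 2.0.9. Any filter on loci, and any scaling of 1 library to the other, is not given in the sources used here. Since FPKM are no counts and each condition is 1 library, neither a count model nor a test was run.

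Log2 ratios used a pseudocount of 1 FPKM and loci that reached 1 FPKM in either library. Gene names were matched exactly, and the row with the higher mean was used where a name repeated. The fragment scale was fitted at unnamed loci of 400 to 3000 bases, where 97.3% (normal) and 96.5% (affected) of low values were whole fragments to within 0.03, a tolerance that takes in 6% of arbitrary values. This gave about 71300000 fragments for the normal and 67600000 for the affected cat. The fragment scale was tested on simulated data. The log2 ratio and its calls were checked only on values without noise, where the outcome follows from arithmetic.

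The members and lists were chosen with earlier results of these data known. The text names all members, listed pathway genes with at least 10 FPKM in either library or at least 2-fold apart, and for each member the nearest named gene. CYP26B1, RDH12 and markers named as examples were picked after their values were seen. Alternatives were a pseudocount of 0.1, 2 rescalings of the libraries, no minimum, a mean of at least 5 FPKM and a 4-fold threshold. Names not listed in the table, STRA6L, RDH11, RDH16, DHRS4 and ADH7 among the pathway genes, were not analysed here, and 1 further gene of the pathway lists is not reported here and is left out of their counts. The steps ran in Python 3.11.15 with pandas 2.3.3, numpy 2.4.6, scipy 1.17.1 and matplotlib 3.10.9.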

Additional observations from a re-analysis of the deposited data

How the results depend on the processing

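With a 4-fold threshold, 1 of the 9 genes, RBP4, was higher and 0 were lower in the affected library, against 3 and 3 at 2-fold. Of all loci, 1.68% were at least 4-fold higher and 1.79% at least 4-fold lower. At that threshold 1 and 3 other pathway genes were higher and lower, against 4 and 5. The lower pathway genes numbered 7 with a pseudocount of 0.1, which added SDR16C5 and RARG, and 6 with both libraries rescaled to the same sum, which added RARG, and the share of all loci that were lower was larger too under both settings. Of 27 log2 ratios of the 9 genes recomputed with another pseudocount or scaling, 5 moved beyond counting error at 1 kilobase. The largest shift, 0.28, was that of ALDH1A2 with a pseudocount of 0.1, which gave −1.81. The median of the 9 genes, −0.40, was −0.45 with both libraries rescaled to the same sum. The counts of the 9 genes past 2-fold were 3 and 3 under the pseudocount of 0.1, both rescalings, without a minimum, and with a required mean of 5 FPKM. The shares of all loci past 2-fold were 11.9% higher and 13.0% lower with the pseudocount of 0.1, 7.50% and 9.32% with rescaling to the same sum, 8.11% and 8.77% with rescaling by the median ratio, 4.24% and 4.55% of 32065 loci without a minimum, and 7.62% and 6.46% with the required mean, against 8.14% and 8.75%. Removal of genes listed at 0 in exactly 1 library, chosen after seeing the data, moved the lens sum of the normal library to 34903 FPKM and the stroma sum of the affected library to 153 FPKM. No paired analysis was possible because there is a single library of each condition.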
